A study of Mus musculus with 9 samples.

Results

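The genes described here encode the proteins that copy chromosomal DNA, with the enzymes that supply its nucleotides, the factor that binds histone mRNA and the cyclin E and E2F genes that act at entry into S phase. They were chosen by symbol, and 43 of 43 symbols were found among the 31053 gene rows of the count matrices. The matrices held UMIs (unique molecular identifiers, 1 for each captured mRNA molecule) of LSK cells, that is, Lin- cKit+ Sca1+ bone marrow cells, a gate that holds hematopoietic stem cells (HSCs) and multipotent progenitors. Samples came from C57BL/6 mice in 3 groups of 3. Young control mice were 10 to 12 weeks old and aged control mice over 80 weeks old, and both were injected with the vehicle, cyclodextrin. Aged+CASIN mice, also over 80 weeks old, received CASIN, an inhibitor of the small GTPase Cdc42, at 25 mg/kg in cyclodextrin, intraperitoneally, 4 times at intervals of 24 h. Cells had been viably frozen and were thawed before capture, and the labels do not say how many animals stand behind a sample.

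Before a cell divides, the origin recognition complex with Cdc6 and Cdt1 loads the ring of Mcm2 to Mcm7 onto DNA, and Cdc45 and the GINS complex turn that ring into the working helicase. Primase and the DNA polymerases then copy both strands behind it, held by the sliding clamp Pcna, which the clamp loader of Rfc1 to Rfc5 places on DNA, while the Rpa trimer covers single strands and Fen1 and Lig1 join the pieces of the lagging strand. Most of these genes are targets of E2F factors, which the RB protein holds back until cyclin D and cyclin E kinases phosphorylate it. HSCs of adult bone marrow are mostly quiescent, so the genes are low in them and high in cycling progenitors.

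The promoters of Mcm6, Mcm5, Pclaf and Prim1 are shown because these genes fell in HSC-like cells of both aged groups, as given further on, and because they differ in the letters of the E2F type that they hold. The windows run from 250 bases before to 50 bases after the annotated start, in the GRCm38.p6 build of RefSeq, and are written 5′ to 3′ on the gene's own strand. They lie at chr1:128359656-128359955 on the minus strand for Mcm6, and on the plus strand at chr8:75109259-75109558 for Mcm5, chr9:65890073-65890372 for Pclaf and chr10:128014965-128015264 for Prim1. Capitals mark matches to TTTCCCGC, TTTGGCGC, TTTCGCGC or TTTGCCGC on either strand.
Mcm6: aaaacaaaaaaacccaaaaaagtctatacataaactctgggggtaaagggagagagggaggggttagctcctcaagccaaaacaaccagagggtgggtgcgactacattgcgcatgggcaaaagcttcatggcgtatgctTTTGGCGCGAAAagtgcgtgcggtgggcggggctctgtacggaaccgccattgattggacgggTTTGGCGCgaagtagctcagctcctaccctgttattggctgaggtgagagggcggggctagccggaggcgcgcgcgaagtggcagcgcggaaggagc
Mcm5: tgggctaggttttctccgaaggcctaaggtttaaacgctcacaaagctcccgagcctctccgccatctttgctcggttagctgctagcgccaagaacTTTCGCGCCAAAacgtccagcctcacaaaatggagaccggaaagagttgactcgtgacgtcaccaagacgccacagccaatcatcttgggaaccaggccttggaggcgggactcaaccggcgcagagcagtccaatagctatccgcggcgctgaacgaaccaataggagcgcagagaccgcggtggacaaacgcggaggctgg
Pclaf: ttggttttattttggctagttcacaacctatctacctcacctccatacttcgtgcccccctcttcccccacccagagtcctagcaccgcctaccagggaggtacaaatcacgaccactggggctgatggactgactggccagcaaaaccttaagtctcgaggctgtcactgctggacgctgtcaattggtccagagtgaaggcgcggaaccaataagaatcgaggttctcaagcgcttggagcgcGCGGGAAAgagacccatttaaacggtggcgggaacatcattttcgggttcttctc
Prim1: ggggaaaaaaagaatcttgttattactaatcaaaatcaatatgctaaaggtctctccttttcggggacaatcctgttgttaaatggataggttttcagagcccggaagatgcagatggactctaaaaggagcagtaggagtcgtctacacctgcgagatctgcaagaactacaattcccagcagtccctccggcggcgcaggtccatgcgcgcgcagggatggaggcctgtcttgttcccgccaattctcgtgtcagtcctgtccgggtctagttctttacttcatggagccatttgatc
Mcm6 held a pair of overlapping matches 110 and 106 bases before the start and a further one at 47 bases, Mcm5 an overlapping pair at 153 and 149 bases, and Pclaf a single match at 5 bases. Prim1 held no exact match to these letters in its window, and near matches were not searched for in any gene. A promoter window was found for 37 of the 43 genes, all but Mcm4, Gins1, Gins2, Pole, Rfc2 and Ccne2. Of these 37, 13 (35.1%) held at least 1 match, against 704 of 27025 genes with a window (2.61%). The 13 were Orc1, Cdc6, Cdt1, Mcm3, Mcm5, Mcm6, Mcm7, Gins3, Pola1, Pold1, Pclaf, Rfc3 and Lig1.

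The 9 samples held 19237354 to 42780953 UMIs, and 15856 of 32387 barcodes passed the filters of the study. Samples were sequenced in 2 batches, with young 1, young 2, aged 1, CASIN 1 and CASIN 2 in batch 1 and young 3, aged 2, aged 3 and CASIN 3 in batch 2, so that each batch held all 3 groups but not in equal numbers. The filters kept 31.6 to 38.4% of the barcodes of a batch 2 sample and up to 86.2% in batch 1, and the median mitochondrial share of all barcodes was 13.0 to 15.5% in batch 2 and 2.73 to 4.61% in batch 1. Any 2 samples shared at most 16 barcodes. The level of some of the genes differed between batches in all groups. Higher in every batch 1 sample than in every batch 2 sample were Ung (3.21-fold by the means), Rpa3 (2.48-fold), Dut (1.86-fold), Rfc4 (1.85-fold), Mcm7 (1.82-fold) and Rfc2 (1.79-fold), and lower were Cdt1 (0.447-fold) and Cdc6 (0.664-fold). Batch was therefore a term of each test across genes. The share of all genes that differed between the batches in this way was not counted. These differences cannot be read as particular to the replication genes.

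In LSK cells taken as a whole, 40 of the 43 genes had a lower fitted level in aged than in young samples, but none passed the test, while in CASIN samples all 43 were below young and 4 passed it. UMIs were summed per sample, scaled to CPM (counts relative to the sample's total) and tested with edgeR's quasi-likelihood test, adjusted over the 13642 genes tested. The sums mix subsets of cells whose shares differed between groups, as given further on, so they are not levels per cell of 1 kind. A gene was called at an adjusted p below 0.05. Among all genes tested, 0.513% were called lower in aged and 0.462% lower in CASIN than in young samples, with 3.59% and 3.8% called higher. The median log2 fold change of the 43 genes was -0.31 for aged over young, with 0.01 over all genes tested, and 12 of the 43, against 22.03% of all genes, had an unadjusted p under 0.05. In CASIN samples it was -0.48, and none of the 43 was higher. For CASIN over young, 30 of the 43, against 23.99% of all genes, had an unadjusted p under 0.05. None of the 43 genes, and 0% of all genes, was called between CASIN and aged samples by edgeR, with 439 of all genes and 0 of the 43 at an unadjusted p under 0.05 and a median of -0.18 for the 43. Groups and subsets were compared by CPM within a gene, and CPM across genes served to choose those named.

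Among the origin licensing factors, Orc6, a subunit of the origin recognition complex, stood at 73.1, 60.4 and 69.5 CPM in young 1 to 3, 45.0, 60.4 and 53.8 in aged 1 to 3 and 55.1, 47.1 and 49.8 CPM in CASIN 1 to 3. All aged and CASIN samples were below or at the lowest young sample, the closest pair being equal at this rounding. The fitted log2 fold change of Orc6, with its standard error (SE), was -0.38 (SE 0.12, adjusted p = 0.102) for aged over young and -0.43 (SE 0.11, adjusted p = 0.064) for CASIN over young, both short of the threshold. Cdc6, which loads the helicase with Cdt1, was at 19.7, 16.1 and 23.1 CPM in young 1 to 3, 10.6, 19.8 and 23.8 in aged 1 to 3 and 14.2, 11.8 and 20.6 CPM in CASIN 1 to 3. Its ranges overlapped, and both batch 2 aged samples were near the young sample of their batch (-0.39, SE 0.17, adjusted p = 0.206 for aged over young). Orc1 and Cdt1 had fitted log2 fold changes of 0.02 and -0.36 for aged and -0.50 and -0.43 for CASIN over young.

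Mcm6, a subunit of the helicase ring, was at 219, 173 and 124 CPM in young 1 to 3, 112, 138 and 115 in aged 1 to 3 and 148, 114 and 109 CPM in CASIN 1 to 3. Young 1 and young 2 were the highest samples, and young 3 lay among the aged and CASIN samples. Mcm4 was at 73.4, 58.4 and 51.3 CPM in young 1 to 3, 38.8, 50.8 and 44.7 in aged 1 to 3 and 50.4, 38.9 and 35.2 CPM in CASIN 1 to 3, with every aged and every CASIN sample below every young one. Its log2 fold change was -0.38 (SE 0.18, adjusted p = 0.246) for aged and -0.58 (SE 0.16, adjusted p = 0.0808) for CASIN over young. The 6 ring genes had log2 fold changes between -0.38 and -0.19 for aged samples and between -0.62 and -0.34 for CASIN samples, both over young, and none was called.

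Of the factors that activate the helicase, Cdc45 fell in CASIN samples, with 27.6, 20.8 and 19.0 CPM in young 1 to 3, 12.4, 19.9 and 15.7 in aged 1 to 3 and 14.01, 13.2 and 11.7 CPM in CASIN 1 to 3. Every CASIN sample was below every young sample, whereas aged 2 overlapped the young samples. The log2 fold change of Cdc45 was -0.82 (SE 0.19, adjusted p = 0.0493) for CASIN over young and -0.46 (SE 0.21, adjusted p = 0.228) for aged over young. Gins2, a GINS subunit, was at 42.2, 32.1 and 23.0 CPM in young 1 to 3, 20.9, 29.7 and 24.5 in aged 1 to 3 and 26.5, 18.9 and 18.5 CPM in CASIN 1 to 3, and Gins3, another subunit, at 7.72, 6.48 and 8.41 CPM in young 1 to 3, 3.65, 6.27 and 7.48 in aged 1 to 3 and 4.56, 4.43 and 6.80 CPM in CASIN 1 to 3. For both, aged 1 was the lowest of the aged samples, and the ranges overlapped. Gins3 had the largest fitted change of this group in aged samples, -0.61 (SE 0.19, adjusted p = 0.0977), which missed the threshold, as did Gins1 and Mcm10.

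Prim1, the catalytic subunit of primase, which makes the RNA primers, was at 69.0, 56.9 and 37.3 CPM in young 1 to 3, 32.7, 36.6 and 34.6 in aged 1 to 3 and 40.6, 32.0 and 24.9 CPM in CASIN 1 to 3. All aged samples were below the lowest young sample, young 3, and CASIN 1 alone of the CASIN samples was above it. The change was called for CASIN over young (-0.75, SE 0.18, adjusted p = 0.0466) and not for aged over young (-0.46, SE 0.19, adjusted p = 0.191). The other polymerase genes, Pola1 and Pola2 of polymerase alpha, which works with primase, Pold1 and Pold2 of the lagging strand enzyme and Pole of the leading strand enzyme, had changes from -0.31 to 0.16 in aged samples, none called. Pold1 was 1 of the 3 genes above young in aged samples, with Ung and Orc1, at log2 fold changes of 0.16, 0.09 and 0.02.

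Pclaf, a small protein that binds the clamp, was at 149, 142 and 100.1 CPM in young 1 to 3, 72.1, 119.9 and 84.4 in aged 1 to 3 and 104, 91.5 and 66.1 CPM in CASIN 1 to 3. Aged 1 and CASIN 3 were low, young 1 and young 2 high, and the groups overlapped (-0.39, SE 0.24, adjusted p = 0.381 for aged and -0.60, SE 0.22, adjusted p = 0.14 for CASIN over young). The clamp gene Pcna itself had log2 fold changes of -0.09 and -0.24. Among the clamp loader genes, Rfc2 was at 233, 198 and 96.0 CPM in young 1 to 3, 132, 116 and 98.6 in aged 1 to 3 and 168, 152 and 83.5 CPM in CASIN 1 to 3, with a change of -0.23 (SE 0.18, adjusted p = 0.484) for aged over young. Its levels followed the batch, the 4 batch 2 samples being the lowest. Rfc4 was at 81.4, 69.3 and 40.8 CPM in young 1 to 3, 47.8, 33.1 and 30.7 in aged 1 to 3 and 56.7, 48.8 and 26.5 CPM in CASIN 1 to 3, and within each batch every aged and every CASIN sample was below every young one. Rfc4 was called for CASIN over young (-0.57, SE 0.11, adjusted p = 0.0257) and was near the threshold for aged over young (-0.46, SE 0.12, adjusted p = 0.0594).

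Rpa2, of the trimer that covers single-stranded DNA, was at 93.03, 73.5 and 70.7 CPM in young 1 to 3, 50.2, 63.9 and 54.7 in aged 1 to 3 and 59.8, 51.3 and 54.9 CPM in CASIN 1 to 3. All aged and CASIN samples were below all young samples, and neither change passed the test (-0.48, SE 0.14, adjusted p = 0.0833 for aged, -0.53, SE 0.13, adjusted p = 0.0526 for CASIN). Lig1, the ligase that seals lagging strand fragments, was at 103, 77.0 and 87.3 CPM in young 1 to 3, 57.5, 104 and 88.9 in aged 1 to 3 and 80.4, 55.6 and 69.2 CPM in CASIN 1 to 3, with aged 2 above every young sample (-0.19, SE 0.21, adjusted p = 0.659 for aged over young). Fen1, the flap nuclease that trims them, was at 61.3, 44.0 and 48.6 CPM in young 1 to 3, 29.2, 42.9 and 34.7 in aged 1 to 3 and 35.5, 27.1 and 37.1 CPM in CASIN 1 to 3. The young samples were the 3 highest, and the changes were -0.59 (SE 0.18, adjusted p = 0.094) for aged and -0.65 (SE 0.17, adjusted p = 0.0601) for CASIN.

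Of the nucleotide enzymes, Dut, which removes dUTP, was at 377, 329 and 161 CPM in young 1 to 3, 233, 211 and 147 in aged 1 to 3 and 282, 256 and 117 CPM in CASIN 1 to 3. Batch 1 samples were high in all groups, and the groups overlapped (-0.14, SE 0.20, adjusted p = 0.728 for aged, -0.43, SE 0.19, adjusted p = 0.196 for CASIN). Rrm2, the regulated subunit of ribonucleotide reductase, was at 49.3, 43.4 and 23.8 CPM in young 1 to 3, 23.8, 24.7 and 20.5 in aged 1 to 3 and 31.7, 26.1 and 16.8 CPM in CASIN 1 to 3, with aged samples between 20.5 and 24.7 CPM and young samples between 23.8 and 49.3 CPM (-0.47, SE 0.19, adjusted p = 0.191 for aged over young). Rrm1, Tyms and Tk1 had changes of -0.21, -0.33 and -0.41 in aged samples, none called. Slbp, which binds the stem-loop of histone mRNA, was at 142, 116 and 138 CPM in young 1 to 3, 76.3, 129 and 111 in aged 1 to 3 and 91.0, 80.8 and 105 CPM in CASIN 1 to 3. CASIN samples were all below young samples, aged 2 was not, and the change was called for CASIN (-0.54, SE 0.13, adjusted p = 0.0493) and not for aged (-0.45, SE 0.14, adjusted p = 0.0942).

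Ccne2, a cyclin E gene, had the largest fitted change of all 43 genes in aged samples. It was at 19.8, 13.7 and 11.01 CPM in young 1 to 3, 8.82, 7.31 and 7.77 in aged 1 to 3 and 13.4, 12.7 and 8.34 CPM in CASIN 1 to 3. All aged samples were below all young samples, the CASIN samples overlapped both groups, and the change for aged over young missed the threshold narrowly (-0.70, SE 0.17, adjusted p = 0.0511). E2f1, a transcription factor of the E2F family, was at 34.0, 22.7 and 24.4 CPM in young 1 to 3, 15.5, 26.7 and 22.5 in aged 1 to 3 and 23.0, 14.9 and 16.8 CPM in CASIN 1 to 3, with overlapping groups (-0.35, SE 0.25, adjusted p = 0.456 for aged, -0.59, SE 0.23, adjusted p = 0.165 for CASIN). Over the 43 genes, 9 had every aged sample below every young sample (4.35% of all genes tested did) and 12 had every CASIN sample below every young sample (3.64%).

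**Figure D1:**
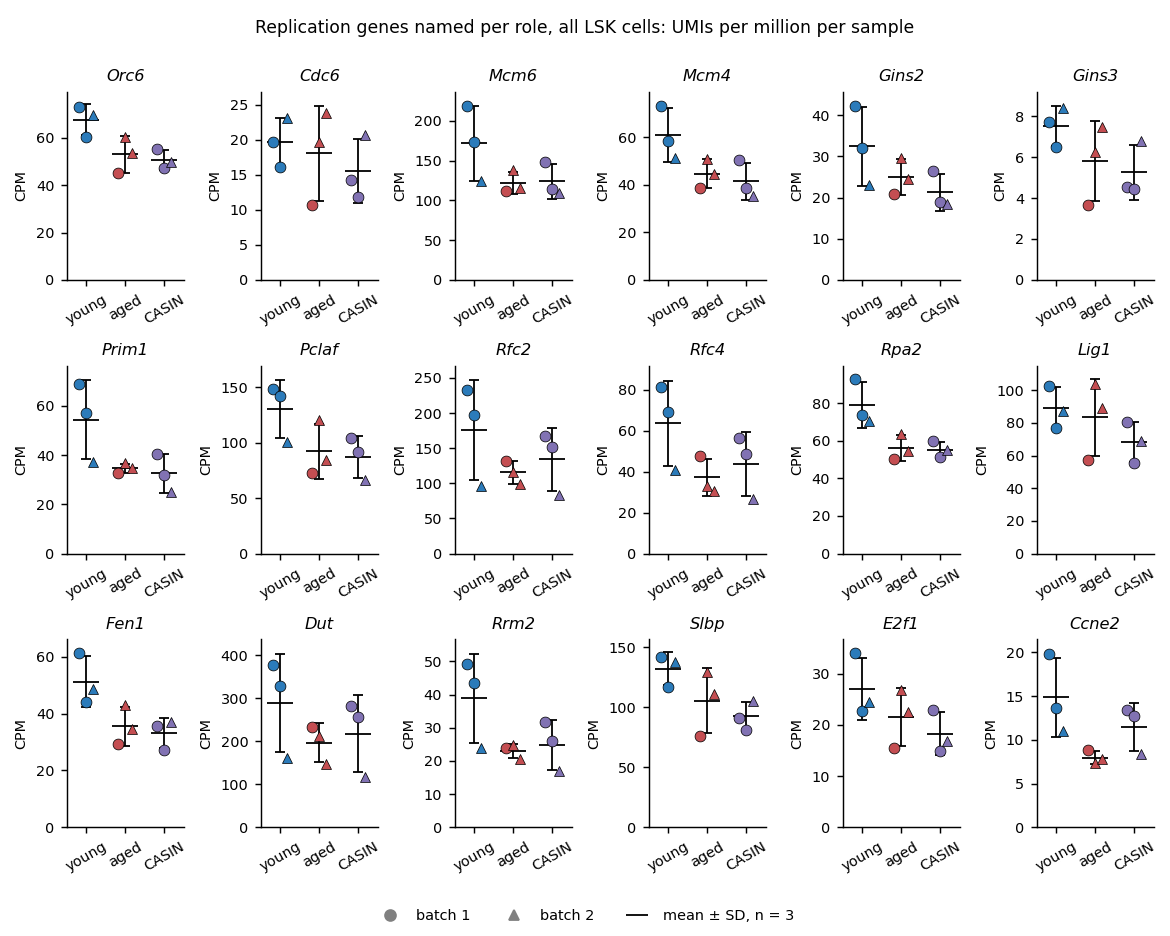
CPM of 18 genes named by role in all LSK cells, 1 point for each of the 9 samples, circles for batch 1 and triangles for batch 2, with the mean ± SD of each group (n = 3); each axis starts at 0 and is scaled to its gene. Aged and CASIN samples of Rpa2, Fen1 and Mcm4 all lie below the young samples, and Dut, Rfc2 and Rfc4 are higher in batch 1 than in batch 2 within every group.

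These counts rested on single libraries. Without aged 1 the median change of the aged samples was -0.03 in place of -0.31. Without young 3, 4 genes were called lower in aged samples, with 945 of all genes called in either direction in place of 560. For CASIN over young, the 4 calls were lost without young 1, young 2, CASIN 1, CASIN 2 or CASIN 3. There 21, 20, 103, 354 and 98 of all genes were called, in place of 582. The count was 12 without young 3, 7 without aged 2, 15 without aged 1 and 1 without aged 3, with 1447, 731, 1584 and 558 of all genes called.

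In HSC-like cells, more of these genes passed the test. Of the 41 genes with enough UMIs to test there, 12 were lower in aged and 25 lower in CASIN than in young samples, and none was higher. Over all 11314 genes tested, 1.98% were called lower in aged and 4.15% lower in CASIN, and 5.21% and 6.87% higher. HSC-like cells were 3204 cells of 3 clusters named from HSC markers such as Procr, which stood at 135 to 231 CPM in them against 84.3 CPM in all LSK cells. Clusters were made without the replication genes described here and without mitosis and histone genes. The cluster of these led by Fos and Jun held 146 to 212 cells in each batch 1 young and aged sample and 15 to 33 in those of batch 2, so that the mixture of clusters moved with the batch. It also differed between groups. The cluster led by Vwf held 84 of 313, 100 of 320 and 94 of 164 HSC-like cells in young 1 to 3. It held 157 of 438, 212 of 328 and 178 of 308 in aged 1 to 3. In CASIN 1 to 3 it held 154 of 308, 190 of 435 and 400 of 590. The part of this mixture in the calls was not tested. Other replication genes could still shape the clusters. Cells high in the replication genes described here formed a cluster of their own, the replication cluster. HSC-like cells are thus the stem cell-like cells outside the replication cluster. The median log2 fold change was -0.69 for aged over young, with 40 of 41 genes negative, and -0.86 for CASIN over young, with all 41 negative. Ccne1 and Ccne2, with 35 and 76 UMIs in these cells, were not tested.

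Of the 6 genes of the helicase ring, Mcm2, Mcm4, Mcm5, Mcm6 and Mcm7 were lower in aged samples, and all 6 were lower in CASIN samples. Mcm5 was at 49.0, 27.1 and 15.8 CPM in young 1 to 3, 6.20, 15.2 and 9.92 in aged 1 to 3 and 13.7, 6.70 and 9.30 CPM in CASIN 1 to 3. Every aged and CASIN sample was below every young one, and the log2 fold change was -1.51 (SE 0.41, adjusted p = 0.0367) for aged and -1.61 (SE 0.36, adjusted p = 0.00966) for CASIN. Mcm6 was at 124, 89.8 and 59.8 CPM in young 1 to 3, 43.2, 51.2 and 57.0 in aged 1 to 3 and 49.5, 46.4 and 50.1 CPM in CASIN 1 to 3, again with no overlap, and changed by -0.78 (SE 0.21, adjusted p = 0.0326) for aged and -0.86 (SE 0.19, adjusted p = 0.00849) for CASIN. Mcm4 fell from 43.3, 31.2 and 22.3 CPM in young 1 to 3 to no more than 15.2 in any aged sample and 18.9 in any CASIN sample. Mcm3 was called for CASIN (-1.02, SE 0.25, adjusted p = 0.015) and missed the threshold for aged (-0.88, SE 0.28, adjusted p = 0.0706).

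Prim1 had the smallest adjusted p of the 41 genes for aged over young in HSC-like cells. It was at 37.0, 27.7 and 14.7 CPM in young 1 to 3, 7.09, 4.85 and 11.7 in aged 1 to 3 and 10.2, 8.19 and 5.84 CPM in CASIN 1 to 3. The lowest young sample was above the highest aged and CASIN samples, and the log2 fold change was -1.56 (SE 0.31, adjusted p = 0.00725) for aged and -1.67 (SE 0.27, adjusted p = 0.00137) for CASIN. Pclaf was at 26.1, 13.6 and 13.1 CPM in young 1 to 3, 0.886, 10.0 and 7.08 in aged 1 to 3 and 3.24, 0.993 and 3.28 CPM in CASIN 1 to 3, from 259 UMIs in all. Its aged and CASIN samples were all below its young samples, aged 1 and CASIN 2 being the lowest, and the changes were -1.92 (SE 0.54, adjusted p = 0.0449) and -2.86 (SE 0.53, adjusted p = 0.00306). Tyms, which makes dTMP, was at 42.2, 29.7 and 24.5 CPM in young 1 to 3, 10.2, 16.4 and 11.3 in aged 1 to 3 and 16.9, 11.9 and 9.85 CPM in CASIN 1 to 3, with all aged and CASIN samples below the young ones (-1.23, SE 0.25, adjusted p = 0.00899 for aged, -1.29, SE 0.23, adjusted p = 0.00232 for CASIN).

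Rpa2 and Rpa3 were both called in aged and CASIN samples, with Rpa2 at 48.4, 37.5 and 34.8 CPM in young 1 to 3, 24.4, 23.3 and 25.1 in aged 1 to 3 and 28.4, 26.6 and 24.8 CPM in CASIN 1 to 3. For Rpa2 the groups did not overlap (-0.63, SE 0.15, adjusted p = 0.0172 for aged), whereas Rpa3 was at 61.5, 62.6 and 19.6 CPM in young 1 to 3, 43.8, 10.0 and 12.4 in aged 1 to 3 and 45.3, 46.7 and 12.8 CPM in CASIN 1 to 3 and separated from young only within a batch (-0.53, SE 0.14, adjusted p = 0.0367 for aged). Dut, with 2884 UMIs the most counted of these genes in HSC-like cells, was at 189.9, 153 and 54.9 CPM in young 1 to 3, 84.8, 44.0 and 42.2 in aged 1 to 3 and 93.6, 90.1 and 30.8 CPM in CASIN 1 to 3. It too was lower within each batch and overlapped across batches (-0.65, SE 0.15, adjusted p = 0.0151 for aged, -0.84, SE 0.13, adjusted p = 0.00109 for CASIN). Rfc2 was the remaining gene called in aged samples (-0.74, SE 0.17, adjusted p = 0.015).

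A further 13 genes passed the test for CASIN over young and not for aged over young, and none of them was called when CASIN and aged samples were compared directly. They were Cdt1, Mcm3, Mcm10, Pola1, Rfc1, Rfc4, Lig1, Rrm1, Rrm2, Tk1, Ung, Slbp and E2f1. Slbp was at 78.4, 65.8 and 69.6 CPM in young 1 to 3, 41.2, 76.7 and 58.8 in aged 1 to 3 and 38.8, 36.7 and 44.5 CPM in CASIN 1 to 3. All CASIN samples were below all young samples, and CASIN 1 and CASIN 2 also below aged 1, the lowest aged sample. The change was -0.81 (SE 0.16, adjusted p = 0.00409) for CASIN over young. Some of these genes rest on few molecules, since Mcm10, Tk1 and Rrm2 had 48, 84 and 105 UMIs over all HSC-like cells, and Mcm10 and Tk1 had none in CASIN 2. The smallest fitted changes in aged samples were those of Pcna (-0.07, SE 0.13, adjusted p = 0.836 for aged), Rfc3 (-0.03, SE 0.16, adjusted p = 0.952) and Rpa1 (-0.07, SE 0.21, adjusted p = 0.887).

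None of the 41 genes was called in HSC-like cells when CASIN was set against aged, as was none of all genes tested (0%), with 338 of all genes at an unadjusted p under 0.05. DESeq2 called 11 of all genes and none of the 41. The median log2 fold change of the 41 was -0.15, and 35 of them were negative. Of the 41 genes, 11 had every aged sample below every young sample and 20 every CASIN sample, while 6.54% of all genes did in either contrast.

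**Figure D2:**
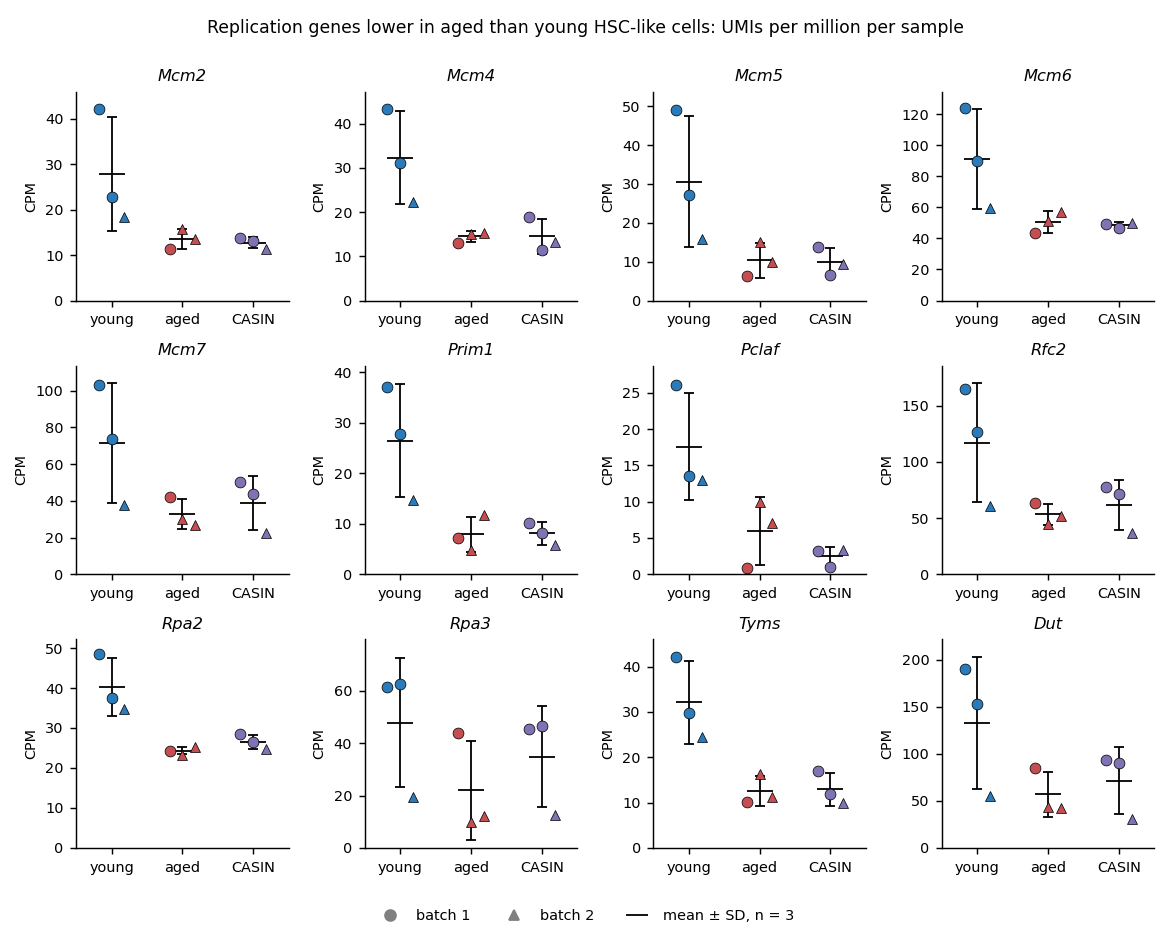
CPM of the 12 genes called lower in aged than young HSC-like cells, 1 point for each of the 9 samples, circles for batch 1 and triangles for batch 2, with the mean ± SD of each group (n = 3); each axis starts at 0. Prim1, Mcm5, Mcm6, Pclaf and Tyms show no overlap between young and the other groups, and Dut and Rpa3 separate only within a batch.

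**Figure D3:**
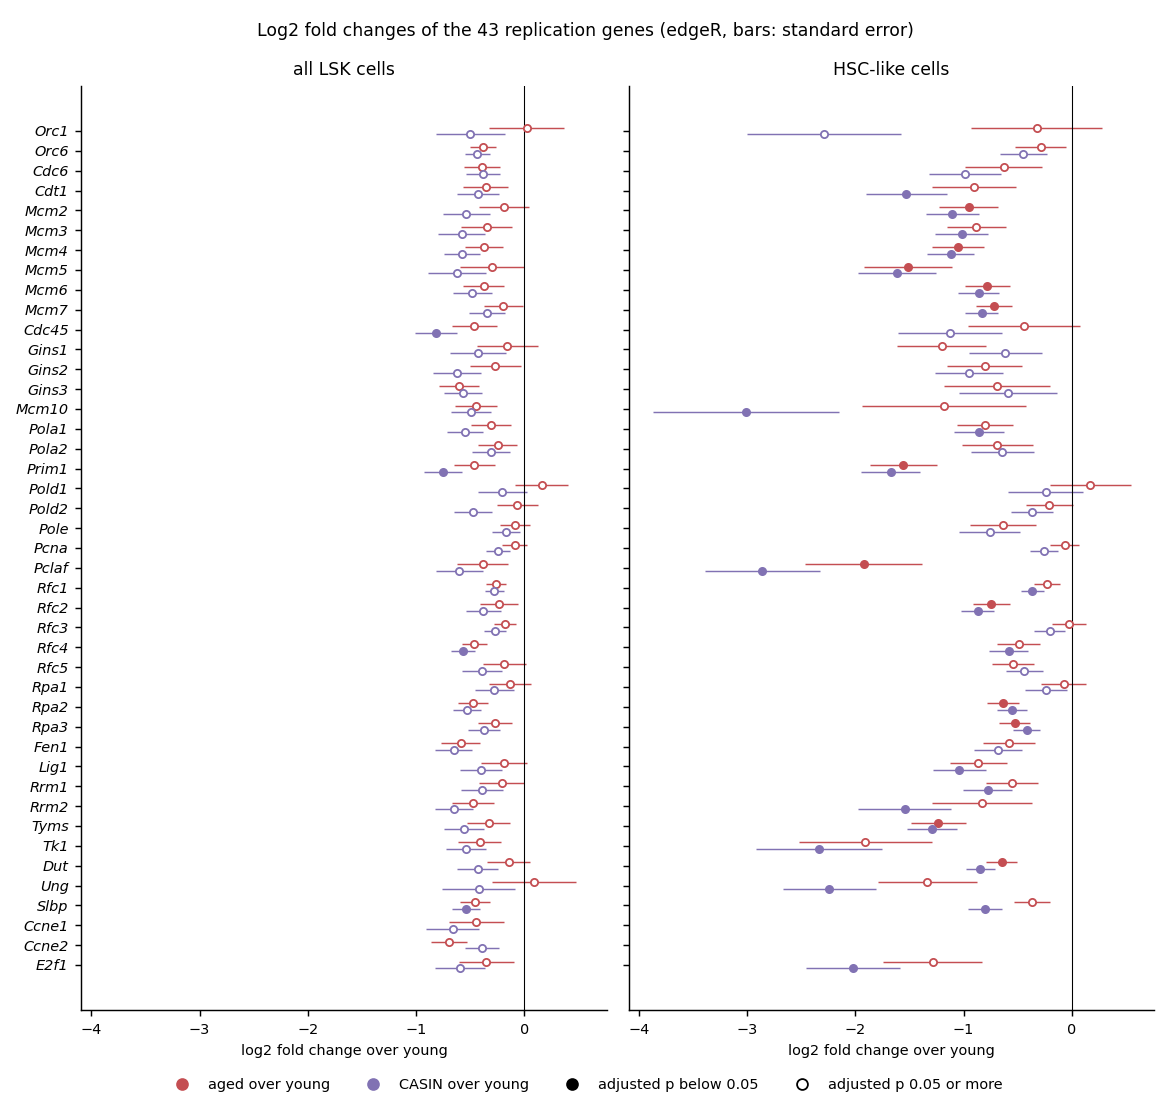
Fitted log2 fold change with its standard error for each of the 43 genes, ordered by role, for both contrasts with young in all LSK cells and in HSC-like cells; filled points passed the test. All filled points lie below 0, 12 of them for aged and 25 for CASIN in HSC-like cells.

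The HSC-like counts also moved with single samples and with the choice of cells. Without aged 1, none of the genes was called lower in aged samples, with a median of -0.35 and 247 of all genes called in place of 813. Without young 1, young 3 or CASIN 3 the count was 2, 24 or 7, with 389, 1044 or 733 of all genes called. For CASIN over young the count was 9 without young 1, 13 without CASIN 2 and 15 without CASIN 3. There 604, 857 and 680 of all genes were called, in place of 1246. The share of LSK cells with no UMI of 24 mitosis genes was 30.3, 35.4 and 28.4% in young 1 to 3, 59.3, 31.7 and 38.4% in aged 1 to 3 and 44.6, 52.9 and 50.4% in CASIN 1 to 3. All CASIN samples were above all young samples, whereas aged 2 lay within the young range and aged 1 was the highest sample. Cells were not thinned for this share, and the median UMIs per cell ran from 9531.5 in CASIN 2 to 14622 in young 1. In HSC-like cells with no such UMI, 31 of the genes could be tested, and 2 were called lower in aged and 4 in CASIN than in young samples. The medians were -0.34 and -0.31, and 522 and 688 of all genes were called. With each cell thinned to 4000 UMIs, 31 could again be tested and the counts were 6 and 12. There the medians were -0.56 and -0.65, with 405 and 591 of all genes called. Without the batch term none of the genes was called in either contrast. The median was then -0.85 in both, and 11 and 12 of all genes were called.

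Compared batch by batch, aged samples were below young samples in batch 1 and on both sides of them in batch 2. In LSK cells of batch 1, the fitted log2 fold change of aged 1 over young 1 and young 2 was negative in 43 of 43 genes, from -1.003 to -0.21 with a median of -0.74. In batch 2, that of aged 2 and aged 3 over young 3 was negative in 21 of the 43, and ran from -0.53 to 1.02 with a median of 0.01. The test of the difference between the batches called none of the 43 genes (3.09% of all genes were called). Of the 43, 24 had an unadjusted p under 0.05, against 19.5% of all genes, 42 of the differences were positive and their median was 0.77. Rfc2 came nearest, with log2 fold changes of -0.69 in batch 1 and 0.18 in batch 2 (difference 0.87, SE 0.21, adjusted p = 0.0615), followed by Ung with -0.83 and 1.02 (adjusted p = 0.0767) and Pclaf with -1.003 and 0.05 (adjusted p = 0.0811). Each batch has 1 sample in 1 of the arms of this contrast, so the batch and that sample cannot be told apart.

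CASIN over young had mostly the same direction in both batches, but in batch 2 it set CASIN 3 alone against young 3 alone. The values of the 43 genes in batch 2 thus come from a single pair of samples. That batch cannot be told apart from these samples. The 43 genes were negative in batch 1 with a median of -0.53, and 41 were negative in batch 2 with a median of -0.38, the exceptions being Rpa1 and Ung at 0.01 and 0.06. The test of the difference between batches called none of the 43 and 0.066% of all genes. CASIN over aged took opposite signs, with 42 of 43 genes positive in batch 1 (median 0.17) and 42 negative in batch 2 (median -0.42). None of these differences was called, with 0% of all genes called. An unadjusted p under 0.05 was found for 15 of the 43 and 13.3% of all genes, and the smallest adjusted p among the 43 was 0.161. CASIN over aged and aged over young share the aged samples, and both share a group with CASIN over young, so the 3 contrasts are not independent of each other.

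HSC-like cells showed the same split, with 41 of 41 genes negative for aged over young in batch 1 (median -1.23) and 23 in batch 2 (median -0.05). For CASIN over young, 41 were negative in batch 1 (median -0.94) and 37 in batch 2 (median -0.49). All 12 genes called in aged samples were also lower in aged in batch 2, among them Prim1 (-0.81), Tyms (-0.75), Rpa3 (-0.76), Rpa2 (-0.47) and Mcm4 (-0.50). The calls used both batches, so this is not a separate test of them. Mcm6 was close to 0 in batch 2 (-0.09).

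**Figure D4:**
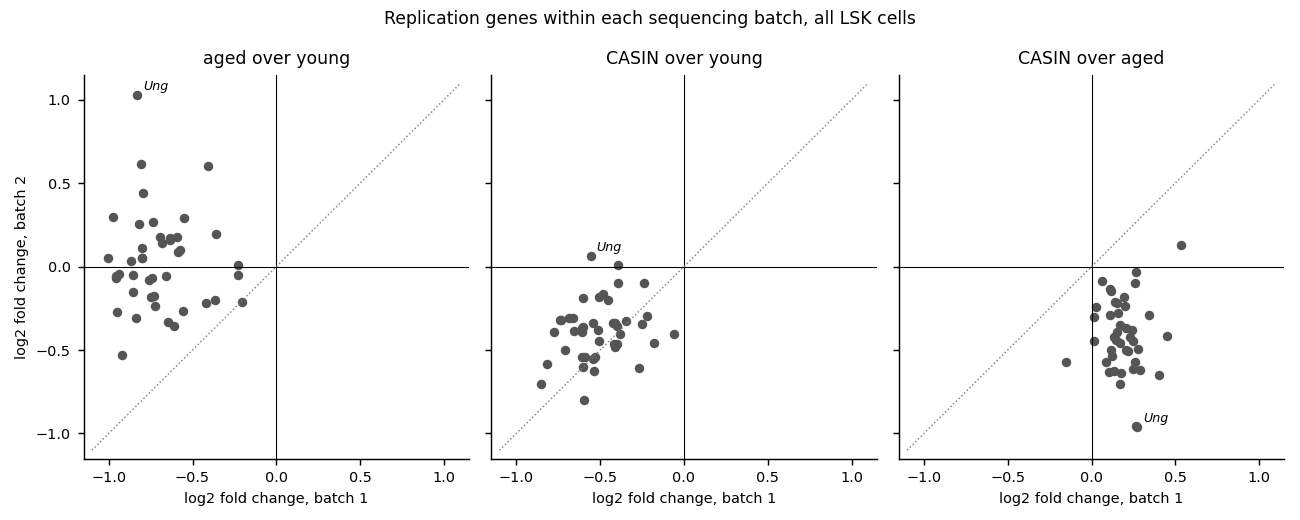
Log2 fold change fitted within batch 1 (horizontal) against that within batch 2 (vertical) for the 43 genes in all LSK cells, 1 panel for each contrast, 1 point for each gene, with a dotted line where both are equal. Aged over young spans -1.003 to -0.21 in batch 1 and -0.53 to 1.02 in batch 2, whereas CASIN over young is negative in both batches for 41 of the 43 genes.

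Across LSK subsets, calls between groups were made in the stem cell-like clusters that were fitted and in clusters led by Ctla2a and Igkc. None was made in LMPP-like, replication and cycling-like cells. The HSC-like cluster led by Fos and Jun was not fitted, since it held only 15 cells in young 3. In the cluster led by Vwf, 3 of 32 genes tested were lower in aged samples, Mcm3, Rfc2 and Tyms (0.739% of all genes), and 9 were lower in CASIN than in young, Mcm3, Mcm4, Mcm5, Prim1, Rfc2, Tyms, Dut, Ung and Slbp (1.34%). In the HSC-like cluster with MHC class II genes, Prim1 was lower in aged (0.215% of all genes), and Prim1 and Dut were lower in CASIN (0.556%), of 27 tested. A cluster led by Ctla2a, with less Procr than the HSC-like clusters, had Prim1 lower in aged (0.392%) and Mcm4, Pola1, Prim1, Rpa2, Lig1 and Rrm2 lower in CASIN (0.537%), of 42 tested. Prim1 was thus called for CASIN over young in each of these 3 clusters, with log2 fold changes of -1.22, -1.60 and -1.32. A small cluster with Igkc had none called in aged (1.24% of all genes in either direction) and Mcm3, Mcm6 and Rpa2 lower in CASIN (0.224% lower), of 30 tested.

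In LMPP-like cells, the lymphoid-primed progenitors with Flt3 and Dntt, no replication gene was called in aged (0.164% of all genes in either direction) or CASIN samples (0.0731%), and the medians were 0.04 and -0.17. In the replication cluster the medians were -0.07 and -0.16, with none called (0.614% and 0.387% of all genes), and in cycling-like cells, which carry mitosis genes, they were 0.11 and 0.02, again with none called (0.552% and 0.131%). Between CASIN and aged samples, none of the replication genes was called in any of these clusters. The share of all genes called there was 0.02% in the Vwf cluster, 0.0379% in the MHC class II cluster, 0.00935% in cycling-like cells and 0% in the others. The age effect in HSC-like cells minus that in LMPP-like cells, tested with limma within samples, was negative for 38 of 41 genes with a median of -0.50, and none was called (0% of all genes). Mcm5 came first with a difference of -1.51 (SE 0.32, adjusted p = 0.216), and 15 of the 41 and 1376 of 10495 genes had an unadjusted p under 0.05. In CASIN samples, again against young, the median difference was -0.58, 40 of 41 were negative and none was called (0.0381% of all genes), and for CASIN over aged none was called either (0%). Gene by gene, no difference between the subsets passed the test.

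Both the share of cells with a UMI of a gene and the UMIs in those cells were compared, and the first had the lower ratio to young. With cells thinned to 4000 UMIs, the median ratio of shares was 0.762 for aged over young and 0.742 for CASIN over young in LSK cells, while the UMIs per cell with any were 0.984 and 0.970 of young. In HSC-like cells the ratios of shares were 0.645 and 0.659, and those of UMIs 0.960 and 0.951. All these ratios compare plain means over the samples of a group, with no batch term. The groups were unequal in the batches, so batch differences can enter the ratios, and their part was not tested. For Prim1 in HSC-like cells the share was 9.29, 6.56 and 5.56% in young 1 to 3, 2.75, 1.23 and 5.33% in aged 1 to 3 and 3.25, 2.56 and 2.58% in CASIN 1 to 3. Every aged and CASIN sample was below every young one, and cells with any held 1.12 ± 0.12 UMIs in young, 1.06 ± 0.11 in aged and 1.03 ± 0.052 in CASIN samples (mean ± SD, n = 3). A value close to 1 UMI leaves no room for a decrease, so the second measure could show little in low genes. In all LSK cells, where Mcm6 was more abundant, its share was 43.8, 36.5 and 29.8% in young 1 to 3, 26.4, 30.6 and 29.1% in aged 1 to 3 and 31.8, 27.1 and 25.5% in CASIN 1 to 3 and its UMIs per cell 1.52 ± 0.14, 1.40 ± 0.057 and 1.37 ± 0.058.

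All aged samples lay below all young samples in share for 6 genes in LSK cells, Orc6, Cdc45, Prim1, Rfc1, Rpa2 and Ccne2 (4.63% of all genes), and for 7 in HSC-like cells, Mcm2 to Mcm6, Prim1 and Tyms (5.38%). For CASIN over young this held for 17 genes in LSK cells (4.25%) and 10 in HSC-like cells (5.09%), and for CASIN over aged for Rpa2 in LSK cells (1.14%) and Mcm2, Ung and Slbp in HSC-like cells (1.55%). A two-sided exact permutation test of 3 samples against 3 cannot go below p = 0.1, which is what these genes reached. That test had no batch term either.

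Levels across the subsets were described without a test, since the clusters were made from the same cells. Among the 7 subsets with at least 20 cells in every sample, the replication cluster had the highest CPM of 39 of the 43 genes, and cycling-like cells that of Gins3, Mcm10, Fen1 and Rrm1. The replication cluster was named for its high level of these genes, so its rank follows from the name and is no separate result. Of these subsets the cluster led by Vwf had the lowest CPM of 39 genes. The smaller clusters were left out of this order, and some lay outside it. Pclaf was at 542 CPM in 92 monocyte and dendritic-like cells and 4.69 CPM in the Hist1h2bc cluster of 263 cells. In the replication cluster the genes stood at a median of 5.29 times their HSC-like level, from 2.21 times for Rfc1 to 33.4 times for Pclaf. Pclaf stood at 8.69 ± 8.14 CPM in HSC-like, 59.1 ± 29.0 in LMPP-like, 225 ± 64.5 in cycling-like and 290 ± 30.4 CPM in the replication cluster (mean ± SD, n = 9 samples), the last pair overlapping over samples. LMPP-like cells were above HSC-like cells in 43 of 43 genes, by a median of 2.18 times. HSC-like cells were 313 of 2151, 320 of 2203 and 164 of 1201 cells in young 1 to 3. They were 438 of 1561, 328 of 1679 and 308 of 1740 in aged 1 to 3. In CASIN 1 to 3 they were 308 of 1112, 435 of 1792 and 590 of 2417. The replication cluster held 407, 313 and 151 of the cells of young 1 to 3. It held 178, 212 and 194 in aged 1 to 3 and 157, 192 and 203 in CASIN 1 to 3. The part of these numbers in the changes of LSK cells was not tested.

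Ung, the glycosylase that removes uracil from DNA, was the exception to the order. It was at 86.9 ± 47.9 CPM in the replication cluster, 36.5 ± 20.1 in LMPP-like cells, 8.59 ± 9.09 in HSC-like cells and 3.101 ± 1.08 CPM in cycling-like cells, the lowest subset fitted. E2f1 and Ccne1 were also lower in cycling-like cells than in the replication cluster, at 21.7 ± 8.78 against 66.5 ± 7.48 CPM for E2f1 and 4.92 ± 1.24 against 14.5 ± 2.38 CPM for Ccne1. Over the 43 genes, the median of cycling-like over replication cluster was 0.773. Within single cells, some pairs of these genes were found together. Only a few genes, each with chosen partners, were looked at. Pclaf had a UMI in 69.0% of the cells with Rrm2 and in 8.52% of the others, among 15524 cells thinned to 4000 UMIs, of which 5.86% had Rrm2. Ung was found in 7.65% of cells, and Mcm7 in 56.3% of those and 23.8% of the others. For Pcna the contrast was smaller, with Dut in 53.2% of the cells with Pcna and 35.7% of the others. Cells were pooled over the samples, and Ung and Mcm7 were both higher in every batch 1 than in every batch 2 sample. Whether these pairs hold within a batch was not tested.

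**Figure D5:**
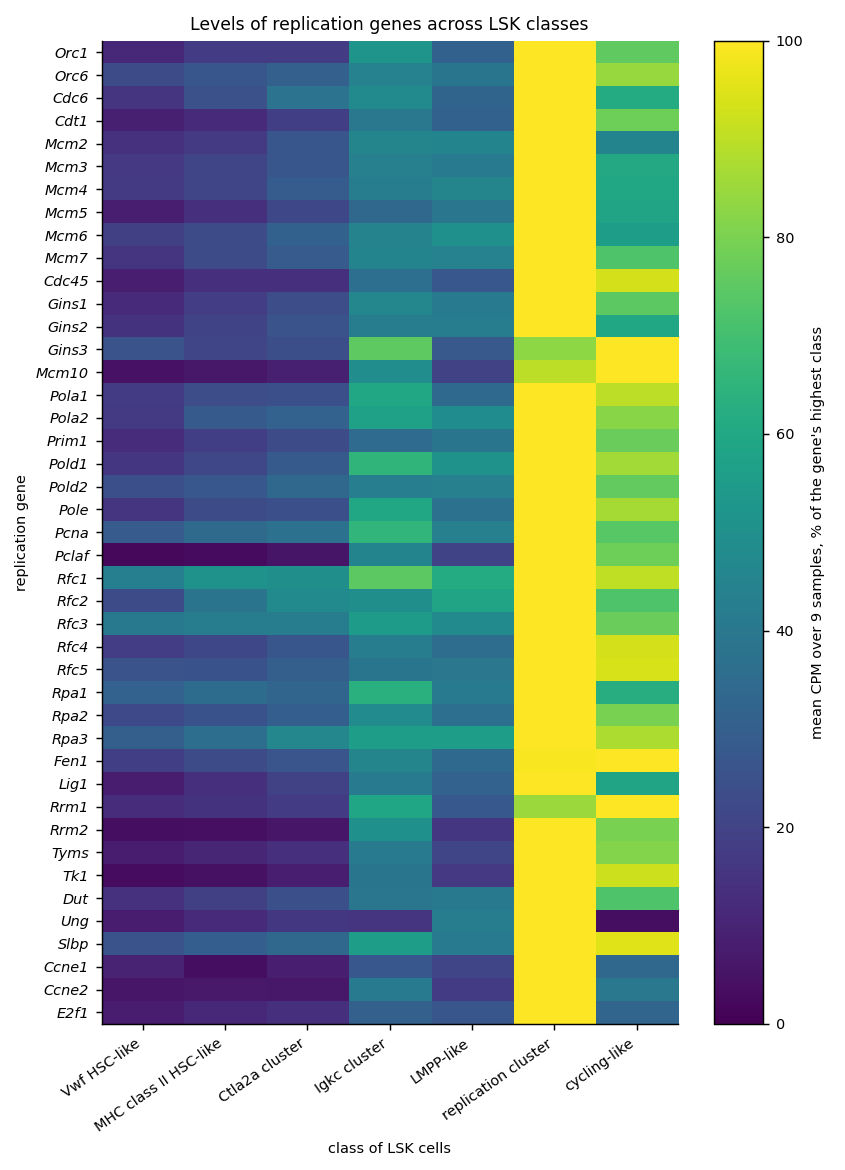
Mean CPM over 9 samples of each of the 43 genes in 7 LSK subsets, in colour as a percent of the gene's highest subset from 0 to 100, with genes in rows by role and subsets in columns. Among these 7, the replication cluster is highest for 39 genes and the Vwf cluster lowest for 39, and Ung is lowest in cycling-like cells.

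Genes around these were compared from lists of other replication genes, mitosis genes and genes of the RB pathway and cyclin D. In LSK cells, 2 of 57 other replication genes were lower in aged samples, against 0.513% of all genes. They were Rad51ap1, a recombination factor (log2 fold change -0.79, adjusted p = 0.0269), and Atad5, which unloads the clamp (-0.52, adjusted p = 0.0451). None of 24 mitosis genes was called, with medians of -0.45 for aged and -0.56 for CASIN over young. Of 18 RB pathway and cyclin D genes, the kinase inhibitor Cdkn1c (1.33, adjusted p = 0.012) and Ccnd1 (0.78, adjusted p = 0.0296) were higher in aged samples (3.59% of all genes were), and the median of the 18 was 0.03. In HSC-like cells, 7 of 50 other replication genes tested were lower in aged (1.98% of all genes were) and 1 higher (5.21% were). Among the lower were the chromatin remodeller Hells at -1.89 (adjusted p = 0.00401) and the polymerase epsilon subunit Pole2 at -1.83 (adjusted p = 0.0134). The gene called higher was the repressor E2f7 at 1.83 (adjusted p = 0.04). Of 16 mitosis genes tested, 2 were lower (1.98% of all genes), Nusap1 at -1.38 (adjusted p = 0.0473) and Cdk1 at -1.08 (adjusted p = 0.0238). Higher, as were 5.21% of all genes, were Cdkn1a at 1.01 (adjusted p = 0.00196), Ccnd1 at 0.87 (adjusted p = 0.0278) and Cdkn1c at 0.74 (adjusted p = 0.00923). For CASIN over young, 17 other replication genes were lower and 1 higher, 11 of 16 mitosis genes were lower, and 4 of the 18 RB pathway and cyclin D genes were higher (6.87% of all genes) and 1 lower (4.15%). The summed CPM of 4 marker genes of mature myeloid cells was 2.71 to 45.1 in young, 24.1 to 225.6 in aged and 1.71 to 21.2 in CASIN samples, with none of the 4 at 0 over the samples, and their part in the results above was not tested.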

How the data were processed

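Poly(A) RNA of sorted LSK cells was sequenced with the 10x 3′ v3 chemistry, and the files used here are gene by barcode matrices of UMI counts per sample. The authors mapped, filtered and counted the reads with Cell Ranger 3.1.0 on GRCm38/mm10 with Ensembl annotation, so the deposited counts are raw counts that have not been normalized. The filters of the study were applied again to cells (at most 10% mitochondrial UMIs, at most 6000 genes, 1000 to 40000 UMIs, and a residual of at most 0.4 from the line of log genes on log UMIs) and genes (in at least 3 cells). Kept cells held 17555578 to 35118707 UMIs per sample, with a median of 9531.5 to 14622 UMIs per cell, and a gene's CPM is relative to its sample's total in the cells compared.

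Cells were integrated and clustered with Seurat 5.3.0 (CCA, 30 dimensions, 35 principal components, resolution 0.4, 1872 genes). The replication genes described here and mitosis, cell cycle and histone genes were taken out first. Fewer integration genes than the study's and an anchor number of 3 were used because of memory. Clusters were named from fixed marker lists, except that the Igkc, Hist1h2bc and Cldn5 clusters bear the name of a gene outside those lists. The replication cluster was named for the genes described here. A difference from the study may come from the rebuilt names. Scrublet marked 67 cells (0.423%), too few to have worked, so doublets were left in and its calls were taken out as an alternative.

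UMIs were summed per sample and class, filtered with filterByExpr, scaled by TMM and tested with edgeR 4.0.16 (quasi-likelihood, all 9 samples, group and batch as terms) in R 4.3.3, with Benjamini-Hochberg adjustment over all genes tested and a threshold of 0.05. Classes needed at least 20 cells in every sample. The difference between classes was tested with limma 3.58.1 on within-sample differences of log2 CPM computed here with a prior count of 2, and differences between batches as an interaction in edgeR. Fold changes within a batch came from the same interaction fit. Shares of cells were taken after thinning each cell to 4000 UMIs, leaving out cells with fewer (24 to 28 per young, 26 to 68 per aged and 6 to 63 per CASIN sample). Exact permutation tests, two-sided and without a batch term, compared them over samples. The scripts were tested on simulated data. Alternatives were DESeq2 1.42.0 and its size factors, other filters, models, cell sets and thinning, and leaving out each sample. Labels do not say whether replicates came from separate animals, so p-values measure the spread between these samples, which may be technical.

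The 43 genes, the other lists and the tests were chosen with earlier results of these data known. In each role, sample values in LSK cells are given for the gene with the highest mean CPM and the gene with the largest absolute change of aged over young. Genes of other lists are named as up to 3 per list with the largest change among those called. Sample values of genes called in CASIN samples or in HSC-like cells, and of pairs found together in cells, were chosen after their values were seen. Promoter windows came from RefSeq. No table of the authors' own comparisons was used.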

Additional observations from a re-analysis of the deposited data

Results flagged for a closer look

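In 9 of the 43 genes, every aged sample of batch 1 was below every young sample of its batch and every aged sample of batch 2 above the young sample of its batch, in all LSK cells. They were Orc1, Mcm2, Gins1, Gins2, Pold1, Rfc2, Rpa1, Lig1 and Ung. For CASIN against aged samples, 23 genes took opposite directions in this sense, higher in CASIN in batch 1 and lower in batch 2, among them Orc6, Cdt1, Mcm4, Mcm6, Pclaf, Rrm2, Dut and Slbp. For CASIN against young samples there were 2, Rpa1 and Ung. The share of all genes with such opposite directions was not counted. These numbers therefore cannot be read as particular to the replication genes. The test of the difference between batches called none of these genes. With 1 aged sample in batch 1 and 1 young and 1 CASIN sample in batch 2, a batch cannot be told apart from the sample that stands alone in it.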

How the results depend on the processing

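All calls of these genes under every alternative tried were lower in aged or CASIN samples than in young, and none was made between CASIN and aged samples. Numbers in parentheses below are all genes called at that setting, in either direction, and they moved as well. For the 43 genes in LSK cells, aged over young made 0 calls (560). It gave 2 (581) with DESeq2's size factors, 6 (1128) with DESeq2's test and 5 (1048) without the filter on low counts. With all barcodes of at least 1000 UMIs it gave 5 (1066), and with 1 sample left out 0 to 4 (31 to 945). CASIN over young made 4 calls (582). It gave 15 (1315) with DESeq2's test, 11 (1119) without the filter, 8 (973) with all barcodes and 22 (1778) with only these groups fitted. The count was 2 (567) without Scrublet's calls, 0 (124) with a mitochondrial limit of 5% and 0 (0) without the batch term. With 1 sample left out it was 0 to 15 (20 to 1584). In HSC-like cells, aged over young made 12 calls (813). It gave 5 (519) with only these groups, 6 (405) with cells thinned to 4000 UMIs and 2 (522) in cells with no mitosis UMI. Without the batch term it gave 0 (11), and with 1 sample left out 0 to 24 (247 to 1044). CASIN over young made 25 calls (1246). It gave 12 (591) thinned, 4 (688) in cells with no mitosis UMI, 0 (12) without the batch term, and 9 to 31 (604 to 1511) with 1 sample left out. Cells with a Procr UMI, which include replicating ones, gave 8 (1196) and 35 (2092). The causes were not tested, beyond the fewer samples or cells that some settings leave.

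Genes whose shares of cells did not overlap numbered 16 in LSK and 12 in HSC-like cells without thinning for aged against young (6 and 7 as reported), 6 with thinning to 2000 UMIs for CASIN against young in HSC-like cells (10), and for CASIN against aged 2 with thinning to 2000 UMIs and 0 without in LSK cells (1) and 0 without in HSC-like cells (3). Thinned to 2000 UMIs, CASIN against aged in HSC-like cells had 4 genes lower and 3 higher, the only setting with a gene whose shares were all higher. The share of all genes without overlap was not counted at these alternative settings. Their numbers therefore cannot be read as particular to the replication genes. The difference between HSC-like and LMPP-like cells called none under its alternatives.

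Replicate numbers are shared by the groups, and whether they pair the samples was not settled. Deviations of same-numbered samples correlated at -0.73 for young 2 and aged 2, which lie in different batches, and the batch set the sign. Within a batch, same-numbered samples correlated at 0.84 to 0.95 and differently numbered ones at 0.73 to 0.87, so the ranges overlapped. With the replicate block, the counts were 0 and 3 in LSK cells and 12 and 23 in HSC-like cells for aged and CASIN over young. Of all genes, 80 and 360 were then called in LSK cells and 536 and 1174 in HSC-like cells. In HSC-like cells, depth limits what can be seen of genes with few UMIs, such as Mcm10, Orc1 and Tk1.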
